A study of Homo sapiens with 12 samples.

Results

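The 41 genes described here encode proteins of mitosis and the kinetochore, and they were matched by gene name in the tables of 2 human cell lines of head and neck squamous cell carcinoma (HNSCC). All 41 were found in both tables, among 29657 listed genes in SCC15 and 31055 in SCC25, and all 41 were abundant enough to be tested. Both cell lines are oral squamous carcinoma lines from a cell bank, labelled WT. Each was treated for 24 h with squamocin, which the labels call ACGs after the annonaceous acetogenins, the class of plant compounds to which it belongs, or with its solvent DMSO. RNA was sequenced from 3 libraries per treatment and cell line, 12 libraries in 4 groups. The labels do not say whether the 3 libraries came from separate cultures, so the p-values measure the spread between these libraries only.

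Mitosis is driven by cyclin B with CDK1 and by the Polo and Aurora kinases, which condense the chromosomes and build the spindle. Kinetochores assemble on the centromeres and hold the spindle fibres, and the spindle checkpoint holds back the anaphase-promoting complex until every chromosome is attached. Transcripts of most of these proteins accumulate late in the cell cycle, in G2 and M phase, under MuvB complexes with B-MYB and FOXM1. The genes are therefore widely used as markers of proliferating tumour cells.

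Promoters of such genes are known for the CHR element, which is bound by MuvB complexes, and for CCAAT boxes, which are bound by NF-Y. RefSeq promoters (GRCh38.p14, from 250 bases before to 50 bases after the start of transcription) were matched for 35 of the 41 genes. TTTGAA or TTCGAA, the CHR letters searched on both strands, stood in 26 of the 35 promoters (74.3%) and in 16.6% of all 27305 promoters. CCAAT, searched on both strands, stood in 28 promoters (80%) against 35.7% of all, and 22 promoters (62.9%) held both motifs against 6.58% of all. The E2F-like letters TTCCCGC or TTGGCGC stood in 6 promoters (17.1%) against 9.33% of all. A match is a match of letters and no evidence of binding.

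The promoters of 4 genes are shown because these genes stand for the different responses described below. CCNB2 (chr15:59104896-59105195, plus strand) was higher with squamocin in both cell lines, and CDC20 (chr1:43358731-43359030, plus strand) was the single gene called with a higher response in SCC15 than in SCC25. KIF11 (chr10:92592880-92593179, plus strand) was lower in both cell lines, and HMMR (chr5:163460382-163460681, plus strand) was lower in SCC15 and higher in SCC25. Capitals mark the CHR and CCAAT letters on either strand.
CCNB2: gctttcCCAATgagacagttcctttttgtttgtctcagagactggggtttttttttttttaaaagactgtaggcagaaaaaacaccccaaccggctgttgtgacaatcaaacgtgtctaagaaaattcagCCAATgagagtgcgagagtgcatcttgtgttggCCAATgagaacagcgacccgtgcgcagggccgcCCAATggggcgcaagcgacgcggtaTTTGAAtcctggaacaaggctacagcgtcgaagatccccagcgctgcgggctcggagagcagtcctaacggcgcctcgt
CDC20: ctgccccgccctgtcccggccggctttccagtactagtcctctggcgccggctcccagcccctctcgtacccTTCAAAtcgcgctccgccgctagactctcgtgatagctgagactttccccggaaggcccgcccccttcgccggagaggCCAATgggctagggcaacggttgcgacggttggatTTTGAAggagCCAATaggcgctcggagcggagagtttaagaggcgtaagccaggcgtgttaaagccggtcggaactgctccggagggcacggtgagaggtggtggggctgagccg
KIF11: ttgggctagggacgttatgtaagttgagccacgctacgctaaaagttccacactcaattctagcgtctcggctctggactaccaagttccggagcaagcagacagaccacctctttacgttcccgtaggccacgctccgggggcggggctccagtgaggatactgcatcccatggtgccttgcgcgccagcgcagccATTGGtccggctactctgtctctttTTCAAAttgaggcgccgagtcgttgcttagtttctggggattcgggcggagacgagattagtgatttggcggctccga
HMMR: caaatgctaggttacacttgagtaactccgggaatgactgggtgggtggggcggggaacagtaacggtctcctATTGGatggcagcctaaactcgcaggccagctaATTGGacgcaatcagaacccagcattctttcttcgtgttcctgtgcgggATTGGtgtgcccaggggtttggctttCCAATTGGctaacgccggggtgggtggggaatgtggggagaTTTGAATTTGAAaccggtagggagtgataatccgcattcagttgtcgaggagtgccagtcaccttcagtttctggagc

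All 4 promoters held both motifs, and their genes had been chosen for different responses. CCNB2 had 1 CHR match and 4 CCAAT matches, CDC20 had 2 and 2, KIF11 had 1 and 1, and HMMR had 2 and 5, with a pair of CCAAT matches that overlap on opposite strands. Of the 26 genes with a CHR match, 7 were called higher and 8 lower in SCC15, and 19 and 4 in SCC25. Of the 9 without one, 4 and 1 were so called in SCC15, and 8 and 0 in SCC25. Of all genes, 30.9% were higher and 30% lower in SCC15, and 38.3% and 38.5% in SCC25. A link between motif and response was not tested. In SCC15 the median log2 fold change was -0.017 for the 26 genes with a CHR match and 0.031 for the 9 without one, and in SCC25 the medians were 0.63 and 0.83.

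Values are given as normalized counts, the reads of a gene after division by a size factor that the authors had set for each library within its cell line. The libraries held 16665563 to 22748845 reads on genes. The third squamocin library of SCC15 stood apart, with a chi-square per degree of freedom of 63.5 and 71.6 against the other squamocin libraries of SCC15, while the 10 other replicate pairs gave 1.72 to 11.0. After scaling, the median library total rose from 15511759 with DMSO to 20826159 with squamocin in SCC15 and from 18272805 to 21182014 in SCC25. Scaling all libraries of a cell line to equal totals moved the median log2 fold change of all genes from 0.012 to -0.48 in SCC15 and from -0.015 to -0.22 in SCC25, so calls made with equal totals are given beside the main ones. All 10 squamous epithelial markers examined had a DMSO median above 10 normalized counts in SCC25. In SCC15 the defining markers KRT5, TP63 and DSG3 had DMSO medians of only 10.3, 17.1 and 1.75, although KRT17 reached 112359. Of 4 leukocyte markers, none passed 27.0 normalized counts in any library. Some markers of other cell types were present, with DMSO medians above 10 for 4 of 5 fibroblast markers in SCC15 (up to 435, COL3A1) and 2 of 5 in SCC25 (up to 579, COL1A1), and for 1 of 3 endothelial markers in SCC15 (PECAM1, 169) and all 3 in SCC25 (up to 171, CDH5). With squamocin the medians were 251 for COL3A1 and 75.2 for PECAM1 in SCC15, and 892 for COL1A1 and 11.4 for CDH5 in SCC25, and their part in the results was not tested.

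In untreated cells the genes differed widely in level, compared here as normalized counts per kilobase of exon. With DMSO, the 41 genes ranged from 11.6 to 1791 per kilobase in SCC15 (median 342) and from 8.41 to 1260 in SCC25 (median 282). TPX2, an activator of Aurora A on the spindle, CDC20, the activator of the anaphase-promoting complex, and CCNB1, the main mitotic cyclin, ranked 1, 2 and 3 in SCC15 at 1791, 1625 and 1312 per kilobase. TOP2A, the topoisomerase that disentangles sister chromatids, led in SCC25 at 1260 per kilobase, followed by CDC20 at 1083 and CCNB1 at 1078. PRC1, which bundles the fibres of the central spindle, was lowest in both. The levels of PRC1 and NUSAP1 can be understated, since 61.9% and 86.8% of their exonic bases are shared with other genes. The tables were normalized separately, so levels are not compared between the cell lines.

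The main question was how squamocin changed these genes in each cell line. In SCC25, 31 of the 41 genes rose and 5 fell, and their median log2 fold change was 0.66 against -0.015 over all 16539 genes tested. In SCC15, 13 rose and 9 fell, with a median of 0.031 against 0.012 over 15902 genes. These calls were made by limma on log2(normalized count + 1) at an adjusted p under 0.05, with adjustment over all genes tested. The treatment changed much of the transcriptome, so that 38.3% of all genes were called higher and 38.5% lower in SCC25, and 30.9% higher and 30% lower in SCC15. In either direction, 36 members were called in SCC25 against 76.8% of all genes, and 22 in SCC15 against 61%. The 3 squamocin libraries all lay above the 3 DMSO libraries for 31 members and below them for 5 in SCC25, as they did for 39.4% and 39.6% of all genes, and for 15 and 15 in SCC15, against 35.7% and 34.9%. The members' share of rises in SCC25 was therefore far above that of all genes, and their share in SCC15 was close to it. In bulk RNA, a change in the share of cells that are in G2 or M phase and a change of the RNA per cell cannot be told apart.

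With equal library totals, 25 genes were higher and 8 lower in SCC25, where 30.4% and 47.4% of all genes were. In SCC15, 3 genes (BUB3, TTK and CDC20) were higher and 26 lower with equal totals, against 14.8% and 50.5% of all genes. The 10 rises no longer called in SCC15 were those of CCNB2, CDK1, NEK2, BUB1, MAD2L1, PTTG1, NUF2, AURKB, KIF2C and PRC1, and the 6 in SCC25 those of PLK1, CDC20, SPC24, HMMR, PRC1 and TOP2A. Among genes not called in SCC15 by the main fit, FOXM1 (-0.85), NDC80 (-0.84), PLK1 (-0.56), CCNB1 (-0.47), BIRC5 (-0.30) and AURKA (-0.29) were called lower with equal totals. So were CENPA, CENPE, SPC24, CDCA8, TPX2, DLGAP5, CKAP2, ECT2, ANLN, TOP2A and CDCA3. The median of the members above that of all genes was 0.67 in SCC25 under both scalings, and 0.019 and 0.015 in SCC15. Scaling a library shifts all its genes nearly alike, so this gap could hardly move and is no test of the scaling. Without the third squamocin library, 14 genes were higher and 16 lower in SCC15, against 38.4% and 37.2% of all genes.

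**Figure D1:**
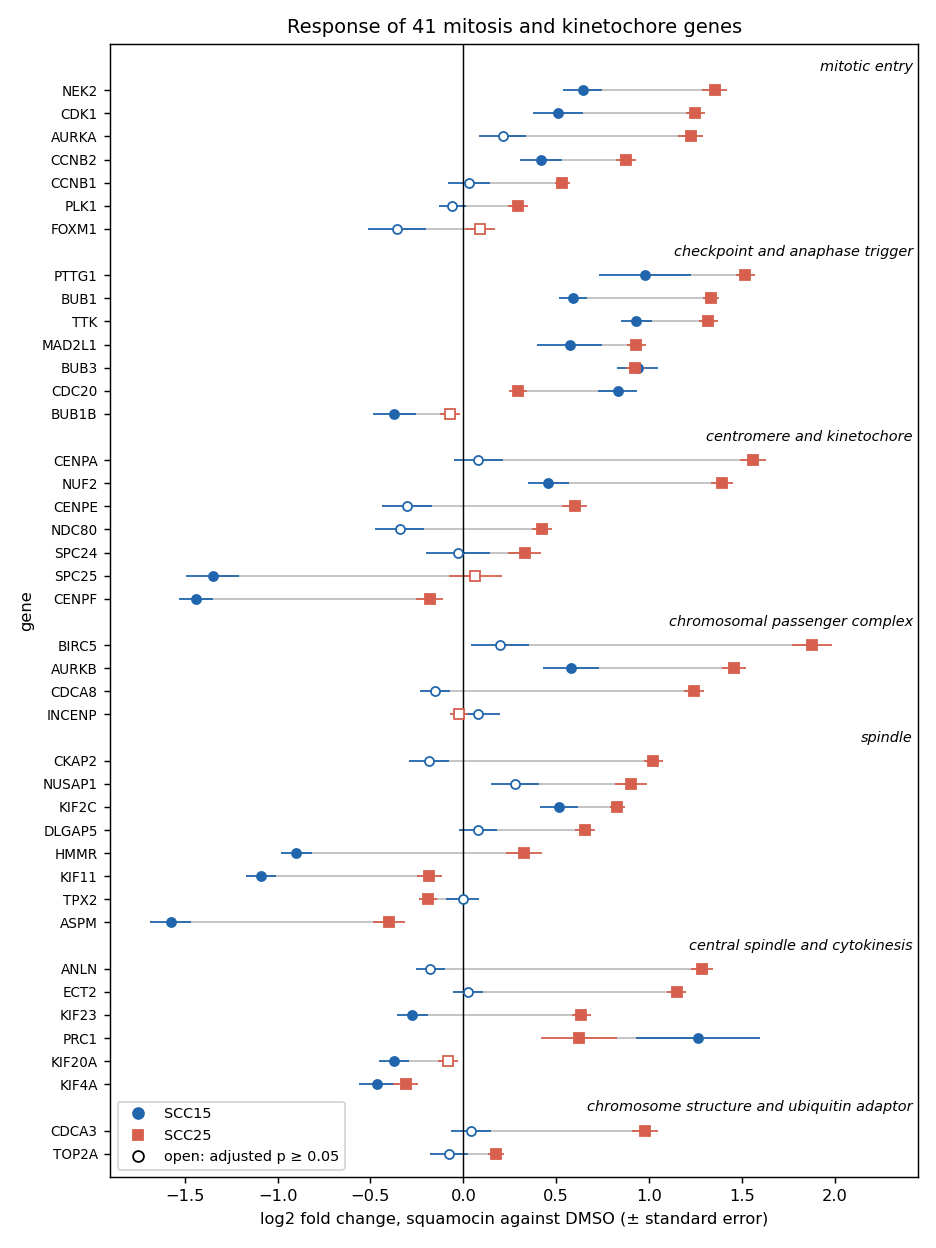
Each gene's log2 fold change (x axis, squamocin against DMSO on log2 of the normalized count plus 1, bars are standard errors) is shown in SCC15 (circles) and SCC25 (squares), grouped by role on the y axis, with open symbols for an adjusted p of 0.05 or more and 3 libraries per group. Most squares lie right of 0, up to 1.88 for BIRC5, while the circles spread from -1.58 for ASPM to 1.26 for PRC1.

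The cell lines were then compared gene by gene. Of the 41 genes, 13 were higher in both cell lines (AURKB, BUB1, BUB3, CCNB2, CDC20, CDK1, KIF2C, MAD2L1, NEK2, NUF2, PRC1, PTTG1 and TTK), against 22.1% of the 14454 genes tested in both. ASPM, CENPF, KIF11 and KIF4A were lower in both, against 18.6% of all genes. HMMR and KIF23 were lower in SCC15 and higher in SCC25, a pattern of 4.66% of all genes, and 0 genes showed the reverse, a pattern of 5.44%. A further 16 genes rose in SCC25 and were not called in SCC15, among them BIRC5, CENPA and AURKA. Without the third squamocin library of SCC15, the 13 and the 4 genes called alike in both cell lines were the same genes, and ANLN, CDCA8, CENPE, CKAP2, NDC80 and SPC24 joined HMMR and KIF23, so that 8 genes were lower in SCC15 and higher in SCC25 against 6.97% of all genes, and 0 showed the reverse against 8.09%. With equal totals, 13 genes were lower in SCC15 and higher in SCC25, against 8.58%, 0 showed the reverse against 2.29%, and BUB3 and TTK were higher in both.

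The difference of the responses was tested directly as the log2 fold change in SCC15 minus that in SCC25. The response was lower in SCC15 for 29 genes and higher for CDC20, while 11 genes were not called, and the median difference was -0.71. Of all genes, 26% were lower and 26.1% higher by this limma contrast, or 52.2% in either direction. Without the third squamocin library of SCC15, 36 members were lower and 3 higher (CDC20, INCENP and PRC1), against 33.4% and 32.5% of all genes. With equal totals, 37 genes had a lower response in SCC15 and CDC20 remained the one higher, against 37.7% and 16.6% of all genes. The largest differences belonged to BIRC5 (-1.68 ± 0.22, SE), the inhibitor of apoptosis survivin that also serves in the chromosomal passenger complex, CENPA (-1.48 ± 0.15), the centromeric histone, and ANLN (-1.46 ± 0.10), the scaffold of the contractile ring. BUB3 differed least, by 0.012 ± 0.13 (limma, adjusted p = 0.945), with a sign that turned with TMM scaling and with equal totals.

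**Figure D2:**
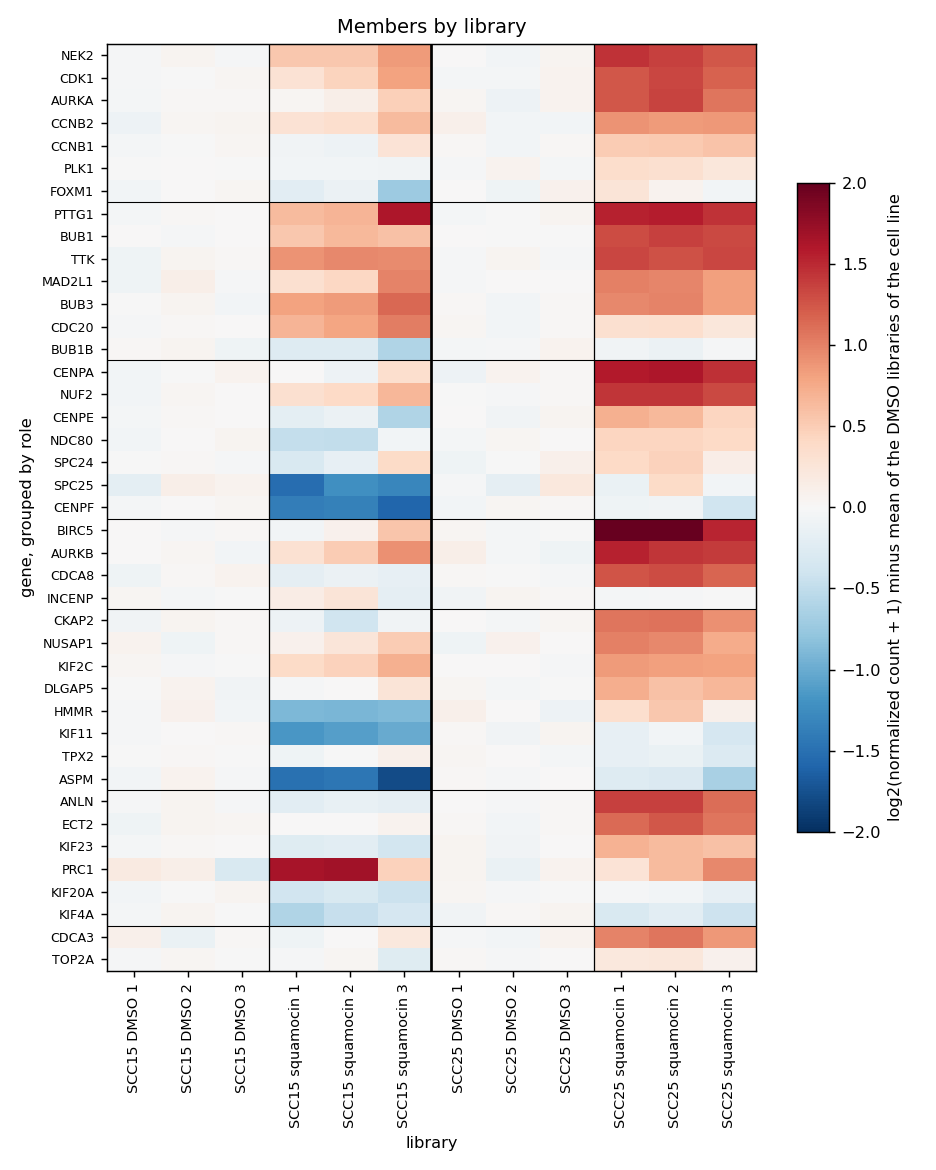
Each column is 1 of the 12 libraries and each row 1 of the 41 genes grouped by role; colour gives log2(normalized count + 1) minus the mean of the 3 DMSO libraries of the same cell line, capped at -2 and 2. The squamocin libraries of SCC25 are red for most genes, and those of SCC15 are mixed, with the deepest blue for ASPM, CENPF, SPC25 and KIF11.

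Among the 7 genes of mitotic entry, 6 rose in SCC25 and 3 in SCC15, against 38.3% and 30.9% of all genes. In either cell line 0 fell, against 38.5% and 30% of all genes. CDK1, the catalytic partner of cyclin B, had, in SCC15, 1588, 1610 and 1656 normalized counts with DMSO against 1967, 2202 and 2816 with squamocin, and 1989, 1989 and 2134 against 4806, 5121 and 4614 in SCC25. The groups did not overlap in either cell line, and the third squamocin library was the highest in SCC15. CDK1 rose by 0.51 ± 0.13 (SE, n = 3 per group; limma, adjusted p = 0.0129) in SCC15 and by 1.25 ± 0.050 (limma, adjusted p = 2.32e-10) in SCC25. NEK2, a kinase that separates the centrosomes, rose the most of this group in both cell lines, from 870, 920 and 870 to 1289, 1291 and 1593 normalized counts in SCC15 (log2 fold change 0.64 ± 0.11) and from 416, 399 and 428 to 1129, 1076 and 980 in SCC25 (1.35 ± 0.068). CCNB2, cyclin B2, rose by 0.42 in SCC15 and 0.87 in SCC25. With equal totals, CDK1 (0.011), NEK2 (0.14) and CCNB2 (-0.079) were not called in SCC15.

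CCNB1, which encodes cyclin B1, responded less than its partner kinase. Its counts in SCC15 were 3110, 3191 and 3276 with DMSO and 3048, 2959 and 3843 with squamocin, so that the groups overlapped and the highest value came from the third squamocin library (log2 fold change 0.031 ± 0.12; limma, adjusted p = 0.833). In SCC25 they were 2660, 2531 and 2679 against 3725, 3766 and 3901, a clear rise of 0.53 ± 0.043 (limma, adjusted p = 1.43e-07). PLK1, the Polo kinase, had 1934, 1946 and 1934 counts in the DMSO libraries of SCC15 against 1863, 1874 and 1837 with squamocin, where the groups did not overlap but the change of -0.061 ± 0.073 was not called. In SCC25, PLK1 rose from 969, 1030 and 959 to 1251, 1228 and 1149 (0.29 ± 0.056; limma, adjusted p = 0.000366), and this call was lost with equal totals. AURKA, the centrosomal Aurora kinase, rose by 1.22 ± 0.067 in SCC25 while its change in SCC15 was 0.21 ± 0.13. CCNB1 (-0.47), PLK1 (-0.56) and AURKA (-0.29) were called lower in SCC15 with equal totals.

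FOXM1, the transcription factor of the G2 and M programme, was not called in either cell line. In SCC15 it had 1349, 1398 and 1441 counts with DMSO against 1201, 1282 and 841 after treatment, where the lowest value came from the third squamocin library (log2 fold change -0.36 ± 0.16; limma, adjusted p = 0.0842). Without that library the change was -0.17 and was called (limma, adjusted p = 0.00796), as was the change of -0.47 without the second. FOXM1 was also called lower in SCC15 with equal totals (-0.85), and so was its response in SCC15 against SCC25 (-0.74). In SCC25 the counts were 704, 653 and 736 against 831, 733 and 671, and the groups overlapped, although without the third squamocin library the change was called higher (0.16). For CCNB2 and CDK1 in SCC15, the call was lost without the first DMSO library, with changes of 0.37 and 0.50.

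Of the 7 checkpoint and anaphase genes, BUB1, BUB3, MAD2L1, TTK, CDC20 and PTTG1 rose in both cell lines, against 22.1% of all genes. PTTG1 encodes securin, which holds back the protease that cuts cohesin, and its counts rose from 1663, 1740 and 1708 to 2650, 2715 and 5251 in SCC15 and from 1083, 1102 and 1148 to 3223, 3314 and 3018 in SCC25. Every squamocin library lay above every DMSO library, but the third of SCC15 was far above the other two, which gave a larger error in SCC15 (log2 fold change 0.98 ± 0.25) than in SCC25 (1.52 ± 0.050). TTK, the MPS1 kinase that starts checkpoint signalling, rose by 0.93 ± 0.083 in SCC15 and 1.32 ± 0.051 in SCC25, and BUB1, the kinase that docks the checkpoint at kinetochores, by 0.59 ± 0.077 and 1.33 ± 0.044. BUB3, the binding partner of BUB1, rose by 0.94 ± 0.11 and 0.93 ± 0.049. MAD2L1, the MAD2 protein that is part of the checkpoint inhibitor, rose by 0.57 ± 0.18 and 0.93 ± 0.052, a call lost in SCC15 without the first (0.53) or the third DMSO library (0.56). With equal totals, the changes of BUB1 (0.093), MAD2L1 (0.074) and PTTG1 (0.48) in SCC15 were not called.

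CDC20 was the one gene of this group with a response called higher in SCC15, while BUB1 and TTK were called lower and the other 4 were not called. It rose from 3218, 3321 and 3270 to 5257, 5644 and 6643 normalized counts in SCC15 and from 2236, 2091 and 2210 to 2719, 2764 and 2543 in SCC25, with no overlap in either. Its rise of 0.83 ± 0.11 in SCC15 exceeded the 0.30 ± 0.048 in SCC25 by 0.54 ± 0.12 (limma, adjusted p = 0.00185). With equal totals the rise in SCC25 was 0.087 and was not called. BUB1B, which encodes the checkpoint inhibitor BUBR1, was the one member of the group that fell, from 1006, 1019 and 931 to 827, 824 and 647 counts in SCC15 (log2 fold change -0.37 ± 0.12; limma, adjusted p = 0.0269). This call was lost without any 1 of the DMSO libraries (-0.36, -0.35 and -0.41). In SCC25 its counts were 1177, 1183 and 1263 against 1145, 1117 and 1186, and the groups overlapped, although it was called lower there with equal totals (-0.28).

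**Figure D3:**
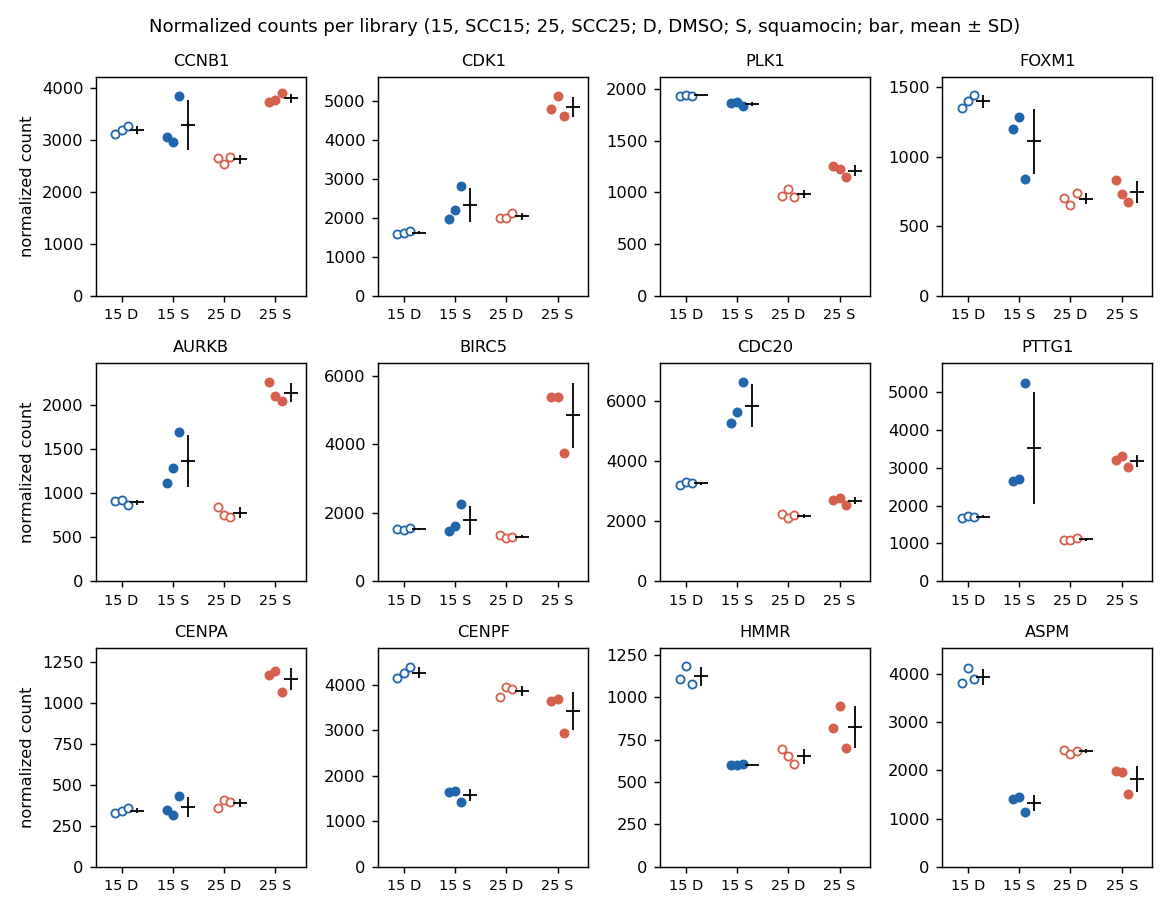
Normalized counts (y axis, from 0) of 12 genes in every library, for SCC15 (15) and SCC25 (25) with DMSO (D, open points) and squamocin (S, filled points); black bars are the mean and SD of 3 libraries. CENPF and ASPM fall most in SCC15, from means of 4264 and 3937 to 1574 and 1327, whereas BIRC5 and CENPA rise in SCC25, from 1301 and 389 to 4847 and 1146.

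Centromere and kinetochore genes split in SCC15. CENPF, a large protein of the outer kinetochore, fell from 4151, 4264 and 4377 to 1632, 1665 and 1426 normalized counts, with every squamocin library far below every DMSO library (log2 fold change -1.44 ± 0.091; limma, adjusted p = 3.02e-05). In SCC25 it had 3732, 3950 and 3905 counts with DMSO against 3643, 3692 and 2936 with squamocin, and the change of -0.18 ± 0.073 was called but lost without any 1 of the DMSO libraries (-0.21, -0.16 and -0.17). SPC25, a subunit of the NDC80 complex that grips spindle fibres, fell from 224, 278 and 269 to 88.1, 109 and 103 counts in SCC15 (-1.35 ± 0.14), whereas its groups overlapped in SCC25 (0.065 ± 0.14).

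By the main fit, the other 3 subunits of the NDC80 complex were not called lower in SCC15, as SPC25 was. NUF2 rose from 589, 626 and 616 to 762, 802 and 966 counts in SCC15 (0.46 ± 0.11) and from 423, 420 and 434 to 1153, 1144 and 1061 in SCC25 (1.39 ± 0.060), although its sign in SCC15 turned with equal totals (-0.039). NDC80 and SPC24 rose in SCC25, by 0.42 ± 0.055 and 0.33 ± 0.088 (0.12 and not called for SPC24 with equal totals), and had log2 fold changes of -0.34 ± 0.13 and -0.029 ± 0.17 in SCC15, where the third squamocin library was the highest of the squamocin libraries for both. Without that library, NDC80 (-0.49) and SPC24 (-0.23) were called lower, as they were with equal totals (-0.84 and -0.53). NDC80 was also called lower in SCC15 with TMM factors (-0.39). CENPA rose by 1.56 ± 0.070 in SCC25 and had a change of 0.080 ± 0.13 in SCC15. CENPE, the kinesin that carries chromosomes to the spindle equator, rose by 0.60 ± 0.068 in SCC25 and had a change of -0.30 ± 0.14 in SCC15, which was called at -0.15 without the third squamocin library. CENPA (-0.42) and CENPE (-0.80) were called lower in SCC15 with equal totals.

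The chromosomal passenger complex corrects faulty attachments, and 3 of its 4 subunits rose in SCC25, against 38.3% of all genes. It had the highest median log2 fold change of the groups there (1.35). AURKB, its kinase, rose from 845, 754 and 731 to 2257, 2100 and 2046 counts in SCC25 (1.46 ± 0.064) and from 904, 920 and 863 to 1112, 1280 and 1686 in SCC15 (0.58 ± 0.15; limma, adjusted p = 0.012). The groups did not overlap in either cell line, and the response was lower in SCC15 (difference -0.88 ± 0.17), where the rise was not called with equal totals (0.082). BIRC5 rose from 1343, 1268 and 1292 to 5399, 5397 and 3746 in SCC25, the largest change of all 41 genes there (1.88 ± 0.11), and its counts in SCC15 were 1541, 1494 and 1543 against 1475, 1615 and 2251, which overlapped. It was called lower in SCC15 with equal totals (-0.30). CDCA8, which encodes borealin, rose by 1.24 ± 0.054 in SCC25, while its counts in SCC15 were 1226, 1320 and 1362 against 1150, 1199 and 1163. The latter change was small (-0.15 ± 0.081), and was called without the third squamocin library (-0.15) and with equal totals (-0.65). INCENP, the scaffold of the complex, was called in neither cell line (0.077 ± 0.12 and -0.023 ± 0.047), so its subunits did not change together. Without the third squamocin library of SCC15, INCENP was called higher there (0.21), and with equal totals it was called lower in SCC25 (-0.23).

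Among the 8 spindle genes, 3 fell in SCC15 and 3 in SCC25, against 30% and 38.5% of all genes. ASPM and KIF11 fell in both. ASPM, which focuses spindle poles, had the largest fall of the 41 genes in both cell lines. It fell from 3804, 4123 and 3885 to 1397, 1447 and 1138 counts in SCC15 (-1.58 ± 0.11; limma, adjusted p = 4.39e-05) and from 2423, 2344 and 2404 to 1995, 1961 and 1519 in SCC25 (-0.40 ± 0.084; limma, adjusted p = 0.000846). KIF11, the kinesin that pushes spindle poles apart, fell from 1594, 1637 and 1646 to 728, 760 and 804 in SCC15 (-1.09 ± 0.080). Its counts in SCC25 were 1801, 1695 and 1839 against 1590, 1712 and 1412, where the groups overlapped and the change of -0.18 ± 0.067 lost its call without the first (-0.17) or the third DMSO library (-0.16).

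HMMR, a spindle protein that binds hyaluronan, was called in opposite directions. Its counts fell from 1108, 1186 and 1077 to 602, 598 and 606 in SCC15 (-0.90 ± 0.081; limma, adjusted p = 0.000119) and rose from 695, 652 and 608 to 817, 950 and 702 in SCC25 (0.33 ± 0.096; limma, adjusted p = 0.00767), where the lowest squamocin library lay just above the highest DMSO library. The rise in SCC25 was not called with equal totals (0.12). KIF2C, a kinesin that takes spindle fibres apart, rose from 2535, 2415 and 2445 to 3220, 3382 and 4015 in SCC15 (0.52 ± 0.10) and from 1642, 1653 and 1612 to 2965, 2894 and 2864 in SCC25 (0.83 ± 0.042), and the rise in SCC15 was not called with equal totals (0.018). TPX2 fell in SCC25 (-0.19 ± 0.048) and had a change of -0.0022 ± 0.089 in SCC15. CKAP2, DLGAP5 and NUSAP1, which bind or stabilise spindle fibres, rose in SCC25 by 1.02 ± 0.053, 0.66 ± 0.054 and 0.90 ± 0.086, and their changes in SCC15 were -0.19, 0.079 and 0.28. Of these, CKAP2 was called lower in SCC15 without the third squamocin library (-0.24) and NUSAP1 higher without the first (0.37). TPX2 (-0.50), CKAP2 (-0.68) and DLGAP5 (-0.42) were called lower in SCC15 with equal totals.

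The central spindle and cytokinesis group also divided between the cell lines. KIF4A, the kinesin that limits the length of the central spindle, fell in both, from 1772, 1897 and 1811 to 1206, 1320 and 1447 counts in SCC15 (-0.47 ± 0.094; limma, adjusted p = 0.00396) and from 835, 890 and 917 to 709, 759 and 663 in SCC25 (-0.31 ± 0.066; limma, adjusted p = 0.000911). The groups did not overlap in either. KIF23, a subunit of centralspindlin, fell from 3039, 3176 and 3156 to 2641, 2699 and 2410 in SCC15 (-0.28 ± 0.083; limma, adjusted p = 0.0226) and rose from 1455, 1338 and 1413 to 2271, 2163 and 2100 in SCC25 (0.64 ± 0.051; limma, adjusted p = 1.48e-07). Its call in SCC15 was lost without any 1 of the DMSO libraries (-0.29, -0.26 and -0.27), while the difference between the cell lines was called (-0.91 ± 0.095; limma, adjusted p = 6.44e-06).

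KIF20A, the kinesin that brings the passenger complex to the central spindle, fell in SCC15 (-0.37 ± 0.081) and had a change of -0.084 ± 0.054 in SCC25, which was called at -0.29 with equal totals. ECT2, which activates RhoA at the cell equator, and ANLN rose in SCC25 by 1.15 ± 0.051 and 1.28 ± 0.058. In SCC15 ECT2 had a change of 0.027 ± 0.081 and ANLN one of -0.18 ± 0.078, which was called lower without the third squamocin library (-0.18) and by DESeq2 (-0.18). ECT2 (-0.47) and ANLN (-0.68) were called lower in SCC15 with equal totals. PRC1 is uncertain. It was the least abundant member, with 72.5, 68.8 and 51.5 counts against 201, 206 and 88.3 in SCC15 and 48.4, 42.3 and 48.7 against 55.9, 72.8 and 91.0 in SCC25. Its calls (1.26 ± 0.34 and 0.62 ± 0.20) were lost without the third DMSO library of SCC15 (1.11), and without the second DMSO (0.56) or the third squamocin library (0.45) of SCC25, and in both cell lines with equal totals (0.77 and 0.42).

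PRC1 shares 61.9% of its exonic bases with the read-through gene AC068831.7 (ENSG00000284946), which the table counts separately and whose counts were 184 ± 17.3 (SD, n = 3) with DMSO against 660 ± 124 after treatment of SCC15, and 100 ± 8.48 against 281 ± 22.1 for SCC25. NUSAP1 shares 86.8% of its bases with other genes. The reads of either gene can therefore be split or dropped in counting. The other 39 genes share at most 15.9% of their exonic bases, and 26 share none. Some of those bases lie on the opposite strand, and whether counting used the strand is not given in the sources used here.

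The remaining members were TOP2A and CDCA3, an adaptor that directs the mitotic inhibitor WEE1 to destruction. In SCC15, TOP2A had 7873, 8203 and 7938 counts with DMSO against 7849, 8196 and 6785 with squamocin, and the groups overlapped. In SCC25 it rose from 8121, 7923 and 8051 to 9318, 9360 and 8568 (0.18 ± 0.042; limma, adjusted p = 0.00211), a small change whose sign turned with equal totals (-0.032). CDCA3 rose from 418, 409 and 443 to 846, 891 and 773 in SCC25 (0.98 ± 0.071), and its counts in SCC15 were 851, 730 and 813 against 752, 799 and 917. TOP2A (-0.58) and CDCA3 (-0.45) were called lower in SCC15 with equal totals.

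The members differed widely in span, and most genes that fell had a long one. The median span, from the first to the last base of all annotated transcripts of a gene, was 29372 bases. A transcript can be shorter than this span. The promoter of SPC25, at 168890381 to 168890680 on chromosome 2, lay inside its span of 168834132 to 168913371. Those of NUF2 and CENPA also lay inside theirs, so a split by span is not one by transcript length. In SCC15, 8 of the 21 genes at or above this span were lower and 4 higher (median log2 fold change -0.18), whereas 1 of the 20 shorter genes was lower and 9 were higher (median 0.20). All 5 genes that fell in SCC25 were in the longer group, in which 14 rose (median 0.60), and 17 of the 20 shorter genes rose (median 0.93). Among all genes of any span, 30.9% were higher and 30% lower in SCC15, and 38.3% and 38.5% in SCC25. For the correlations, span was instead taken from the gene start and end deposited with the counts, which can differ from the annotated span above. Across the 41 genes, Spearman's rho between span and log2 fold change was -0.47 in SCC15 and -0.31 in SCC25. Across all protein-coding genes tested, it was -0.21 (n = 12766) in SCC15 and -0.0086 (n = 13095) in SCC25, and across the 133 other mitotic genes described below -0.38 and -0.16. With exonic length in place of span, rho was -0.26 and -0.28 across the 41 genes, -0.34 and -0.25 across the other mitotic genes, and -0.24 (n = 12740) and -0.083 (n = 13069) across protein-coding genes. These are descriptions across genes measured in the same libraries, and genes are not independent replicates. CENPF, ASPM, SPC25 and KIF11 lie in the longer group, but so do NUF2 and BUB1, which rose in both cell lines.

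**Figure D4:**
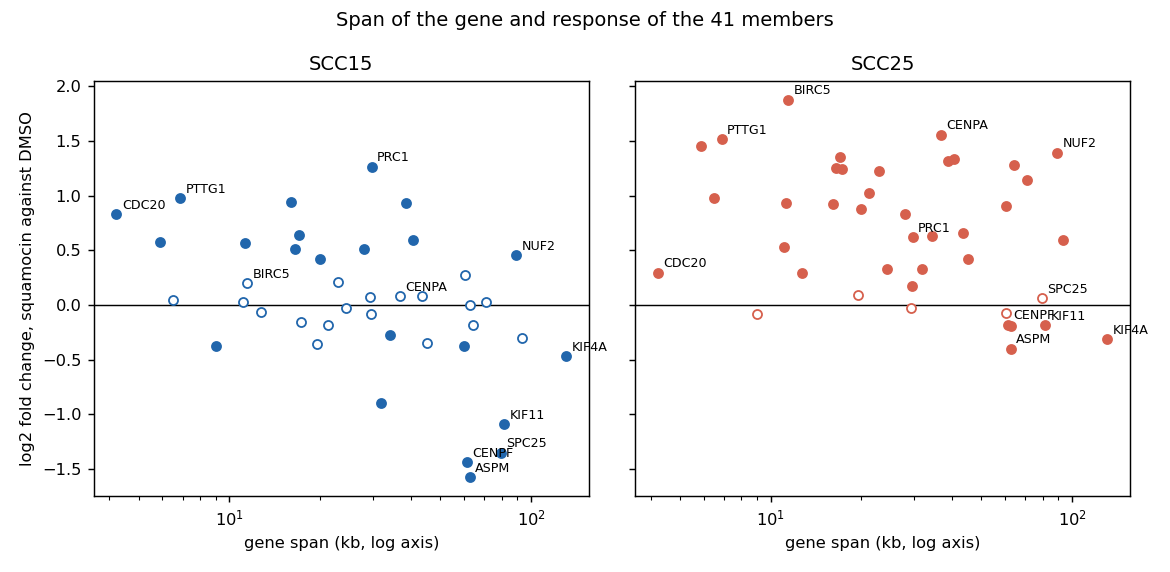
Span of each of the 41 genes (x axis, kilobases, log axis) against its log2 fold change with squamocin (y axis) in SCC15 (left) and SCC25 (right); filled points had an adjusted p under 0.05. The steepest falls, of ASPM (-1.58), CENPF (-1.44), SPC25 (-1.35) and KIF11 (-1.09) in SCC15, belong to genes of long span, and NUF2 is a gene of long span that rose.

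A wider list of 133 other mitotic genes, written by role from general knowledge, placed these values among the rest of the machinery. In SCC15, 32 of the 133 were higher and 47 lower (median -0.048), against 30.9% and 30% of all genes. In SCC25, 68 were higher and 35 lower (median 0.19), against 38.3% and 38.5%. With equal totals the counts became 8 and 84 in SCC15, against 14.8% and 50.5% of all genes, and 50 and 53 in SCC25 with a median of -0.017, against 30.4% and 47.4%. The median in SCC25 lay below that of the 41 genes, an order that scaling whole libraries can hardly change.

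Subunits, activators and partner enzymes of the anaphase-promoting complex were the one group of this list in which most genes rose in both cell lines. These were 12 of 18 in SCC15 and 11 of 18 in SCC25, against 30.9% and 38.3% of all genes. Only 8 of all 133 genes were higher in SCC15 with equal totals, so most of the 18 did not rise there on that scale. UBE2S, which extends its ubiquitin chains, rose from 6242, 5371 and 5583 to 16106, 17922 and 32976 counts in SCC15 (1.89 ± 0.26), where the third squamocin library was far the highest. UBE2C, which starts them, rose from 1864, 1923 and 1855 to 8443, 8615 and 7909 in SCC25 (2.14 ± 0.044). ANAPC10, a subunit that helps to bind substrates, rose from 103, 118 and 86.7 to 336, 347 and 296 in SCC25 (1.67 ± 0.13). In contrast, 10 of the 13 genes of cohesin and its control fell in SCC15 and 7 of the 13 rose in SCC25. Of the 8 condensin genes, which compact chromosomes, 4 fell in SCC15 and 5 in SCC25. Of all genes, 30% were lower in SCC15, and 38.3% were higher and 38.5% lower in SCC25.

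Genes of the transcriptional control of mitosis did not move as a group, with 5 of 14 higher and 5 lower in SCC15 and 6 and 5 in SCC25. These counts stand against 30.9% and 30% of all genes in SCC15, and 38.3% and 38.5% in SCC25. E2F5, a repressor E2F, rose from 70.0, 82.2 and 58.5 to 250, 247 and 330 counts in SCC15 (1.96 ± 0.18), and RBL1, the pocket protein p107, fell from 845, 876 and 873 to 458, 475 and 390 in SCC25 (-0.98 ± 0.077). CDC25A, the phosphatase that activates CDKs, had the steepest fall of the 133 in both cell lines, from 629, 661 and 601 to 219, 227 and 230 counts in SCC15 (-1.48 ± 0.091) and from 206, 199 and 221 to 81.3, 116 and 67.7 in SCC25 (-1.26 ± 0.17). MKI67, the proliferation marker Ki-67, fell from 5480, 5361 and 5539 to 2475, 2559 and 1532 in SCC15 (-1.36 ± 0.19). Except for CDC25A, genes with printed counts in this and the previous paragraph are given for a single cell line. That is the line where their change was among the strongest, so these values show no difference between the cell lines.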

How the data were processed

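RNA-seq libraries of SCC15 and SCC25 cells were made and sequenced by the authors. Per the labels' processing notes, reads were aligned to GRCh38 with HISAT2 2.0.5 and counted per gene with featureCounts 1.5.0-p3. The deposited signal is the number of reads of a gene, scaled by the authors with a size factor for each library of a cell line, and the SCC25 columns are named FPKM although they hold no FPKM. The deposited tables also hold the authors' own fold changes and p-values, which were not used. Each library's size factor was recovered from its values, and 100% of the values came out as whole reads within 0.01. These numbered 16665563 to 22748845 reads per library, so that counting error was small for all members but PRC1 and SPC25.

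Genes with a mean of at least 10 normalized counts were tested with limma 3.58.1 (R 4.3.3, trend) on log2(normalized count + 1), two-sided, with Benjamini-Hochberg adjustment over all of them. Fold changes on this scale understate the change of low genes. The difference between cell lines was a contrast of the 4 group means over 14454 genes. Values were printed for every library for the lowest and the highest member by role in SCC15, for members called in opposite directions, for CCNB1, CDK1, PLK1, AURKB and FOXM1, and for the strongest changes of the wider list. Values of other members (CDCA8 and BIRC5 among them) were added where a result turned on them, after they were seen. The members and lists were chosen with earlier results of these data known. Lengths came from GENCODE 44, except the spans used in the correlations, which came from the gene positions deposited with the counts. The fits were tested on simulated data. Alternatives were pseudocounts of 0.1 and 10, other filters, TMM factors, DESeq2 1.42.0 or edgeR 4.0.16 applied to the recovered reads, equal library totals, a replicate block, an absolute log2 fold change above 1, and each library left out.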

Additional observations from a re-analysis of the deposited data

Results flagged for a closer look

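The response to squamocin differed between the cell lines, by the limma contrast over all 12 libraries, for 30 of the 41 genes, against 52.2% of all genes tested in both. The values below are the log2 fold change in SCC15 minus that in SCC25. CDC20 was the one gene whose positive difference was called, at 0.54.

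Among the kinetochore and passenger complex genes, the difference was -1.68 for BIRC5, -1.48 for CENPA, -1.41 for SPC25, -1.39 for CDCA8, -1.26 for CENPF, -0.93 for NUF2, -0.90 for CENPE, -0.88 for AURKB and -0.77 for NDC80. Among the spindle genes it was -1.23 for HMMR, -1.21 for CKAP2, -1.18 for ASPM, -0.91 for KIF11, -0.62 for NUSAP1, -0.58 for DLGAP5 and -0.31 for KIF2C. Among the cytokinesis genes it was -1.46 for ANLN, -1.12 for ECT2, -0.91 for KIF23 and -0.29 for KIF20A. For entry and checkpoint genes it was -1.01 for AURKA, -0.74 for BUB1, -0.74 for CDK1, -0.71 for NEK2, -0.50 for CCNB1, -0.46 for CCNB2, -0.39 for TTK and -0.36 for PLK1, and it was -0.94 for CDCA3. The call of KIF2C was lost without the first or second squamocin library or the first or the third DMSO library of SCC15, and without the first squamocin library or any DMSO library of SCC25, and its value ranged from -0.41 to -0.25 with single libraries left out. That of KIF20A was lost without the third DMSO library of SCC15 or the first squamocin library of SCC25, with a range from -0.33 to -0.26. Groups of 3 libraries are too small for a test of outliers.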

How the results depend on the processing

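Pseudocounts of 0.1 and 10, a minimum of 10 in every library and edgeR on the recovered reads changed no member's direction or call. DESeq2 and TMM factors lost no call. DESeq2 also called ANLN lower in SCC15 and the difference of TOP2A lower, and TMM factors called NDC80 lower in SCC15. Without a filter on low values, the calls of CENPF in SCC25 (limma, adjusted p = 0.0649) and of KIF2C for the difference (limma, adjusted p = 0.0508) were lost. Equal library totals changed more calls than TMM factors did. In SCC15 they left 3 members higher and 26 lower (median -0.47) and 8 and 84 of the other mitotic genes (median -0.55). In SCC25 they left 25 members higher and 8 lower (median 0.45) and 50 and 53 of the other mitotic genes (median -0.017), against 30.4% and 47.4% of all genes, and the median difference between the cell lines was -1.0002. An absolute log2 fold change above 1 was met by 1 member upward and 4 downward in SCC15, against 12.6% and 14.6% of all genes, by 14 and 0 in SCC25, against 13.9% and 17%, and for the difference by 0 and 11, against 11% and 10.6%. Among the other mitotic genes, 5 and 11 met it in SCC15, and 17 and 1 did so in SCC25.

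Several values changed sign, and the cause was not tested. With equal totals in SCC15, this was so for CCNB1 (-0.47), CCNB2 (-0.079), AURKA (-0.29), CENPA (-0.42), NUF2 (-0.039), INCENP (-0.42), BIRC5 (-0.30), NUSAP1 (-0.22), DLGAP5 (-0.42), ECT2 (-0.47) and CDCA3 (-0.45), of which CCNB2 and NUF2 had been called higher. All of these but CCNB2, NUF2, INCENP and NUSAP1 were called lower with equal totals. In SCC25 it was so for FOXM1 (-0.12), SPC25 (-0.14) and TOP2A (-0.032), and for the difference between the cell lines for BUB3 (-0.28), INCENP (-0.19) and TPX2 (-0.10). With TMM factors in SCC15 the changes of CCNB1 (-0.013), ECT2 (-0.016) and CDCA3 (-0.00054) turned, as did the difference of BUB3 (-0.025), and with DESeq2 that of SPC24 in SCC15 (0.00012).

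When single libraries were left out, the members numbered 10 to 14 higher and 7 to 16 lower in SCC15 (median -0.038 to 0.079), 30 to 31 and 3 to 5 in SCC25 (median 0.64 to 0.80), and 1 to 3 and 27 to 36 for the difference (median -0.75 to -0.63). The 16 came without the third squamocin library of SCC15, and the 3 without the first or the third DMSO library of SCC25. The other mitotic genes numbered 19 to 47 and 33 to 62 in SCC15 (median -0.11 to -0.025), and 64 to 74 and 30 to 36 in SCC25 (median 0.17 to 0.25). The members whose sign turned had not been called with all libraries. In SCC15 SPC24 ranged from -0.23 to 0.11, TPX2 from -0.052 to 0.042, INCENP from -0.012 to 0.21, CCNB1 from -0.088 to 0.10, CENPA from -0.049 to 0.17, DLGAP5 from -0.0083 to 0.13, TOP2A from -0.13 to 0.0031, CDCA3 from -0.038 to 0.10 and ECT2 from -0.013 to 0.052. In SCC25 SPC25 ranged from -0.094 to 0.17 and INCENP from -0.057 to 0.00046, and the difference of BUB3 ranged from -0.097 to 0.075.

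After subtraction of each gene's group mean, same-numbered squamocin and DMSO libraries of a cell line had correlations across genes of -0.051 to 0.0078. The main fit did not use replicate numbers as pairs, and these correlations do not show whether the libraries were handled as pairs. The fit with the replicate number as a block called 13 members higher and 8 lower in SCC15, 31 and 5 in SCC25 and 1 and 27 for the difference, having lost KIF23 in SCC15 and KIF2C and KIF20A for the difference. Counting error was small for the members other than PRC1 and SPC25, and whether more libraries would change the calls of small changes was not tested.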

Other observations

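Among the other mitotic genes, 13 of the 19 of the constitutive centromere network, which sits on centromeric chromatin through the whole cell cycle, rose in SCC25 and 1 fell (median log2 fold change 0.30), while 2 rose and 4 fell in SCC15 (median -0.041). Of the 9 genes of the kinetochore scaffold and the SKA complex, 5 rose in SCC25 and 5 fell in SCC15. Spindle assembly and centrosome genes rose in 12 of 22 cases in SCC25 and in 5 of 22 in SCC15. These shares stand against 38.3% of all genes higher in SCC25, and 30.9% higher and 30% lower in SCC15.

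MYBL2, which encodes B-MYB, was chosen after its values were seen. The reason was that its direction in SCC25, and in the difference of the responses, went against that of most members. It was among the 5 of the 133 other mitotic genes called higher in SCC15 and lower in SCC25, a pattern of 5.44% of all genes. Its counts were 3139, 3038 and 2965 with DMSO against 3476, 4033 and 4711 with squamocin in SCC15 (log2 fold change 0.41 ± 0.12; limma, adjusted p = 0.0203), and 970, 900 and 941 against 605, 642 and 523 in SCC25 (-0.67 ± 0.076; limma, adjusted p = 4.03e-06). The groups did not overlap in either cell line, and the difference of the responses was 1.08 ± 0.15 (limma, adjusted p = 5.92e-05). With equal totals the value in SCC15 was -0.090 and not called, while the difference was 0.79 and still called. The call in SCC15 was also lost without the second squamocin library (0.41) or any 1 of the DMSO libraries (0.43, 0.41 and 0.39). Among the 14 genes of transcriptional control, the response was called higher in SCC15 for 7 and lower for 4, against 26.1% and 26% of all genes.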
